A study of Mus musculus with 16 samples.

Results

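A set of 10 Kruppel-like factor genes, *Klf2*, *Klf3*, *Klf4*, *Klf5*, *Klf6*, *Klf7*, *Klf9*, *Klf10*, *Klf13* and *Klf15*, were examined in mouse mammary tumors with and without a gene trap in *Resf1*. They were taken by name from the 23609 genes of the table, and all 10 were found and had a high enough mean value to be tested. RNA was extracted from primary mammary tumors of MMTV-PyMT mice that were wildtype or heterozygous for the *Resf1* gene trap and were littermates, and 5 wildtype and 5 gene trap tumors were compared. All of these mice carried PyMT, the polyoma middle T antigen, which the MMTV promoter drives in mammary epithelium, so every tumor was induced by the same oncogene. The trap is a lentiviral enhancer and gene trap cassette in the first exon of *Resf1* that expresses a fusion of EGFP and Cre and truncates the *Resf1* message. The trap was carried on a C57BL/6 background and crossed to FVB/MMTV-PyMT, and the ages of these animals are not given in the sources used here. The values are estimated counts per gene that had been normalized between tumors before deposition, called normalized values below, and the depth of each tumor is unknown.

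Kruppel-like factors are transcription factors that bind GC-rich and CACCC sequences through zinc fingers at the end of the protein. Members differ outside the fingers, where some recruit corepressors such as CtBP or Sin3 and others recruit acetyltransferases. Several are induced rapidly by serum, growth factors or stress, some are induced by glucocorticoids, and others set the state of epithelial or endothelial cells. *Klf4* and *Klf5* are known for their roles in epithelial differentiation and proliferation, and *Klf4* is also one of the factors that reprogram cells to pluripotency.

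Before the members were compared, the labels and the tumors were checked. The trapped gene *Resf1* averaged 4099 ± 399.7 (SD, n = 5) in the wildtype and 3516 ± 361 (SD, n = 5) in the gene trap group, and the groups overlapped (p = 0.0635 in an exact permutation test, two-sided). In limma its log2 fold change was -0.22 (95% interval -0.42 to -0.023, unadjusted p = 0.0313, adjusted p = 0.9997), and the sign was the same under all 19 alternatives. Epithelial markers were abundant in every tumor, with a summed value of 77623 to 102596 in wildtype and 82057 to 105116 in gene trap tumors over the 6 of 6 markers measured. Gene trap replicate 2 was unlike the rest. It lay at 91.8 on the first principal component, against -18.6 to -4.78 in the other 9, and 22.4% of all tested genes had their highest and 21.8% their lowest value in it. The comparisons of the members and of the gene lists between the groups were therefore also made without it.

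The deposited data hold RNA levels only, but G4 quadruplexes, the 4-stranded structures that G-rich DNA can form, are a subject of the study. The study is concerned mainly with quadruplexes in transcribed sequences, which were not searched here. From chromatin labeled by human RESF1 in human cells, the paper also reports RESF1 at the promoter of *Klf4*. That binding cannot be examined in these RNA values. The RefSeq promoter sequences are searched only to describe the members. They were found for 8 of the 10 members (build GRCm38.p6, whereas the deposited values were made on mm39), and *Klf5* and *Klf10* had no entry. Only the 250 bases before the start were used. A G4 motif, meaning at least 4 runs of 3 or more G with 1 to 7 bases between them, was found on either strand in 4 of these 8 promoters and in 16.7% of all 32851 promoters. Among the members only *Klf3* had one on both strands, as did 0.880% of all promoters. A match of each of the 4 members, in *Klf3* that on the strand of the gene, is shown with its neighboring bases in lower case, 5′ to 3′ on the strand of the gene, and the runs of G, or of C where the motif is on the other strand, are in capitals. The stretches are chr5:64803283-64803364, plus strand, chr4:55532649-55532702, minus strand, chr1:64121481-64121536, minus strand and chr7:63938923-63938958, minus strand.
Klf3: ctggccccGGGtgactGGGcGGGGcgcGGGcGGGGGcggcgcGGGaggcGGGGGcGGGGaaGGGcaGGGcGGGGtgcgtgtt
Klf4: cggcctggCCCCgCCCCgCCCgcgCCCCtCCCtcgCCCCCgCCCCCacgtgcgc
Klf7: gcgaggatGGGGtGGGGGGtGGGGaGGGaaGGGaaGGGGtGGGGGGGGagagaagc
Klf13: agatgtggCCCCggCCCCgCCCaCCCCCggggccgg

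The promoters of *Klf2*, *Klf6*, *Klf9* and *Klf15* had no such motif in this window. The letters CCAAT were found on either strand in 4 of the 8 promoters and in 33.8% of all promoters, with 4 copies in *Klf6*, 3 in *Klf9*, 2 in *Klf13* and 1 in *Klf15*. The stretches of *Klf6* and *Klf9* with these copies in capitals (as CCAAT, or as ATTGG where the copy is on the other strand) are shown because they hold the most copies. They are chr13:5861251-5861423, plus strand and chr19:23141048-23141172, plus strand, and in *Klf9* a copy on each strand share bases.
Klf6: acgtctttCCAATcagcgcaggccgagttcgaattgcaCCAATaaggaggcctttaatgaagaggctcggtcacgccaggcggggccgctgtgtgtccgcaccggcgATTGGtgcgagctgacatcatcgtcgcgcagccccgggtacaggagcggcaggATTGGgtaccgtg
Klf9: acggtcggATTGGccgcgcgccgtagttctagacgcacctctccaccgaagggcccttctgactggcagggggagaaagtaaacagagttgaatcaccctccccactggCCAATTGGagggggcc

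On either strand, the letters CACCC, part of the sequence that the factors themselves bind, were found in 6 of the 8 promoters (all but *Klf4* and *Klf6*) and in 52.0% of all promoters. The letters GGGCGG were found in 7 of the 8 (all but *Klf9*) and in 32.7% of all promoters. None of the 8 held TATAAA (12.4% of all promoters), the cAMP response element TGACGTCA (1.55%) or a CArG box (1.47%). Matches of GGGCGG can lie within a G4 motif, and the GC content of the 8 windows was 59.2% to 78.4% against a median of 52.4% over all promoters.

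The members were expressed at very different levels. Levels were compared between genes per kilobase, with the normalized value divided by the length of the union of the annotated exons. *Klf6* was highest, with a median of 959 per kilobase over the 10 tumors (range 726 to 1436), and its lowest tumor lay above the highest tumor of *Klf9*, which was next with 434 (range 368 to 636). *Klf10* followed with 332, *Klf13* with 252 and *Klf3* with 235. *Klf9* was above *Klf10* and *Klf10* above *Klf13* in 10 of 10 tumors, although their ranges overlapped, while *Klf13* and *Klf3* changed order between tumors (*Klf13* higher in 7 of 10). *Klf5* with 125, *Klf7* with 121 and *Klf4* with 81.8 per kilobase formed a lower group, and *Klf5* lay below *Klf3* without overlap. *Klf5* was higher than *Klf7* in only 5 of 10 tumors. *Klf15* with 44.1 and *Klf2* with 43.8 were lowest and could not be ordered, with *Klf15* higher in 6 of 10 tumors.

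To ask whether the gene trap changed the members, gene trap and wildtype tumors were compared with limma on log2 values, with Benjamini-Hochberg adjustment over all 21034 tested genes. None of the 10 members had an adjusted p under 0.05 (adjusted p = 0.9997 for each), as was the case for 0 of all tested genes (0%). None had an unadjusted p under 0.05, against 479 of all tested genes (2.28%). None had groups that did not overlap, against 111 of all tested genes (0.528%). The members' log2 fold changes, gene trap minus wildtype, lay between -0.26 and 0.19 with a median of 0.048, and the median over all tested genes was 0.0047 with quartiles of -0.09 and 0.10. Of the members, 7 had a positive and 3 a negative log2 fold change, where 51.4% of all tested genes were positive. Both depended on single tumors, with 4 members positive and a median of -0.075 without wildtype replicate 1, and 5 members positive without gene trap replicate 1 or gene trap replicate 2. The 95% intervals of 7 members lay wholly within 1.5 fold in both directions, and those of *Klf4*, *Klf6* and *Klf15* did not.

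**Figure D1:**
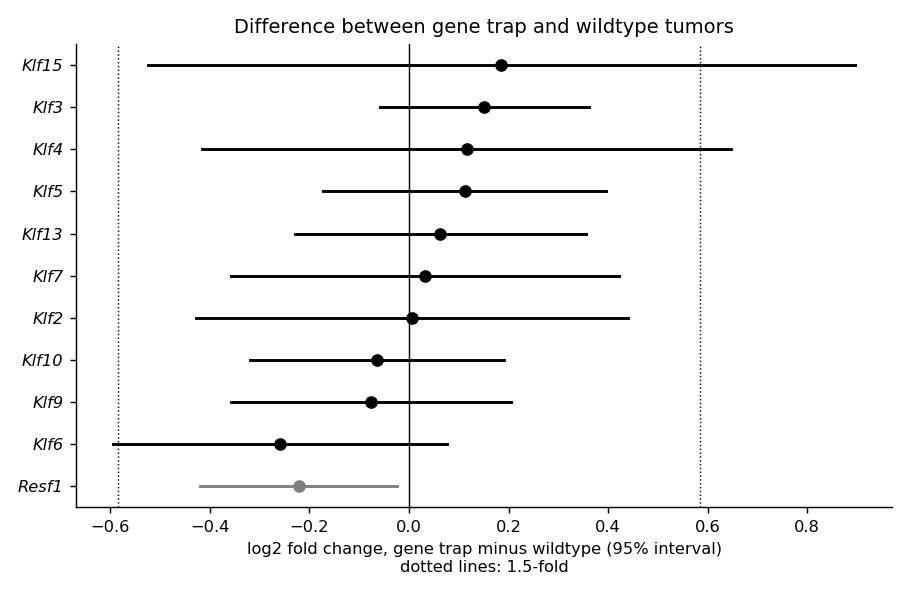
Log2 fold change (gene trap minus wildtype, 5 tumors each) of the 10 members and, in grey, of *Resf1*, with points for the limma estimate, bars for its 95% interval and dotted lines at 1.5 fold. The intervals of all 10 members include 0, and those of *Klf4*, *Klf6* and *Klf15* reach beyond a dotted line.

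Among the factors known as early response genes, *Klf6*, a wound- and growth factor-responsive factor also described as a tumor suppressor, had the most negative log2 fold change. Its normalized values in wildtype replicates 1 to 5 were 3311, 4247, 4198, 6307 and 4677. In gene trap replicates 1 to 5 they were 4222, 3701, 3186, 4416 and 3234. Of the wildtype tumors, 2 lay above all gene trap tumors, and 2 gene trap tumors lay below all wildtype tumors, but the other tumors overlapped. The mean was 4548 ± 1101 (SD, n = 5) in wildtype and 3752 ± 559.8 (SD, n = 5) with the gene trap. On the log2 scale the difference was -0.26 (95% interval -0.59 to 0.08, limma, unadjusted p = 0.119), and the exact two-sided permutation test gave p = 0.206. The value depended on single wildtype tumors, with -0.13 without wildtype replicate 4 (unadjusted p = 0.323 in limma) and -0.36 without wildtype replicate 1 (unadjusted p = 0.0256 in limma, adjusted p = 0.9996).

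*Klf10*, which was first described as a TGF-beta-inducible early gene and represses transcription through Sin3, had values of 1224, 1171, 1545, 1665 and 1568 in wildtype replicates 1 to 5. In gene trap replicates 1 to 5 its values were 1421, 1233, 1214, 1611 and 1350.2. All 5 gene trap tumors lay within the range of the wildtype tumors, and the log2 fold change was -0.06 (95% interval -0.32 to 0.19).

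The epithelial regulators were not separated by genotype either. *Klf4*, a factor of epithelial differentiation, had values of 115, 256, 252, 363 and 201 in wildtype replicates 1 to 5. In gene trap replicates 1 to 5 it had values of 244, 204, 249, 261 and 249.8. Wildtype replicate 1 was the lowest and wildtype replicate 4 the highest of all 10 tumors, 3.16-fold apart, and all gene trap tumors lay between them. The means were nearly equal, 237 ± 90.3 (SD, n = 5) in wildtype and 242 ± 21.9 (SD, n = 5) with the gene trap, with a log2 fold change of 0.12 (95% interval -0.41 to 0.65). The sign of the difference rested on wildtype replicate 1, without which the log2 fold change was -0.12.

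*Klf5*, which promotes proliferation of epithelial progenitors, showed the same order of the extreme wildtype tumors. Its values were 481, 593, 673, 751 and 519 in wildtype replicates 1 to 5 and 670.2, 686, 633, 712 and 532 in gene trap replicates 1 to 5. All gene trap tumors lay within the wildtype range, and the log2 fold change was 0.11 (95% interval -0.17 to 0.40).

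*Klf3*, a repressor that recruits CtBP, came closest to a separation upward. Its values were 2371, 2547, 2339.8, 2768 and 2421 in wildtype replicates 1 to 5 and 2817, 3307, 2810.0, 2738 and 2234 in gene trap replicates 1 to 5. Of the gene trap tumors, 3 lay above all wildtype tumors, but gene trap replicate 5 was the lowest of the 10. The mean was 2489 ± 175 (SD, n = 5) in wildtype and 2781 ± 381 (SD, n = 5) with the gene trap, and the log2 fold change was 0.15 (95% interval -0.06 to 0.36, limma, unadjusted p = 0.143). The exact two-sided permutation test gave p = 0.159, where the smallest p that 5 against 5 tumors allow is 0.00794. The log2 fold change fell to 0.09 without gene trap replicate 2, the tumor that stood apart, and was 0.23 without gene trap replicate 5 (unadjusted p = 0.0183 in limma, adjusted p = 0.990).

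The factors known to respond to glucocorticoids were *Klf9* and *Klf15*. *Klf9*, which is also induced by thyroid hormone, had values of 1773, 2236, 2079, 3064 and 1940.2 in wildtype replicates 1 to 5 and 2261, 2027, 1812, 2098 and 2160.0 in gene trap replicates 1 to 5. Wildtype replicate 4 was again highest and wildtype replicate 1 lowest, and the gene trap tumors lay between them. The log2 fold change was -0.08 (95% interval -0.36 to 0.21), and it was 0.047 without wildtype replicate 4.

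*Klf15*, a regulator of gluconeogenesis and of amino acid breakdown in liver and muscle, was the most variable member. Its values were 92.4, 81.9, 101, 159 and 173 in wildtype replicates 1 to 5 and 265, 112, 68.8, 147 and 134 in gene trap replicates 1 to 5. The highest and the lowest of all 10 tumors, 3.85-fold apart, were both gene trap tumors. Its residual SD on the log2 scale was 0.598, larger than that of 89.7% of all tested genes, and the log2 fold change of 0.19 had an interval of -0.52 to 0.90. Without gene trap replicate 1 the log2 fold change was -0.06.

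*Klf13*, a factor known from T lymphocytes that can recruit Sin3, had values of 1421, 2054, 1926, 2539 and 1686 in wildtype replicates 1 to 5. In gene trap replicates 1 to 5 its values were 1826, 2201, 2144, 1866 and 1860.5. The extremes were again wildtype replicates 1 and 4, and the log2 fold change was 0.06 (95% interval -0.23 to 0.35).

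*Klf7*, best known from neurons, had values of 975, 931, 619, 1102 and 1021 in wildtype and 997, 1166, 993, 969 and 632 in gene trap replicates 1 to 5. One tumor of each group, wildtype replicate 3 and gene trap replicate 5, was far below the rest, and the log2 fold change was 0.03 (95% interval -0.36 to 0.42). *Klf2*, a factor of quiescent endothelium and of T cells, was among the least abundant, with 54.3, 80.3, 86.8, 74.1 and 87.6 in wildtype and 81.4, 100.02, 85.0, 64.4 and 56.4 in gene trap replicates 1 to 5. Its groups had almost the same mean, and its log2 fold change was 0.0066 (95% interval -0.43 to 0.44). The highest value of *Klf2*, *Klf3* and *Klf7* was that of gene trap replicate 2, and without this tumor the log2 fold changes of *Klf2* and *Klf7* were -0.09 and -0.05.

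**Figure D2:**
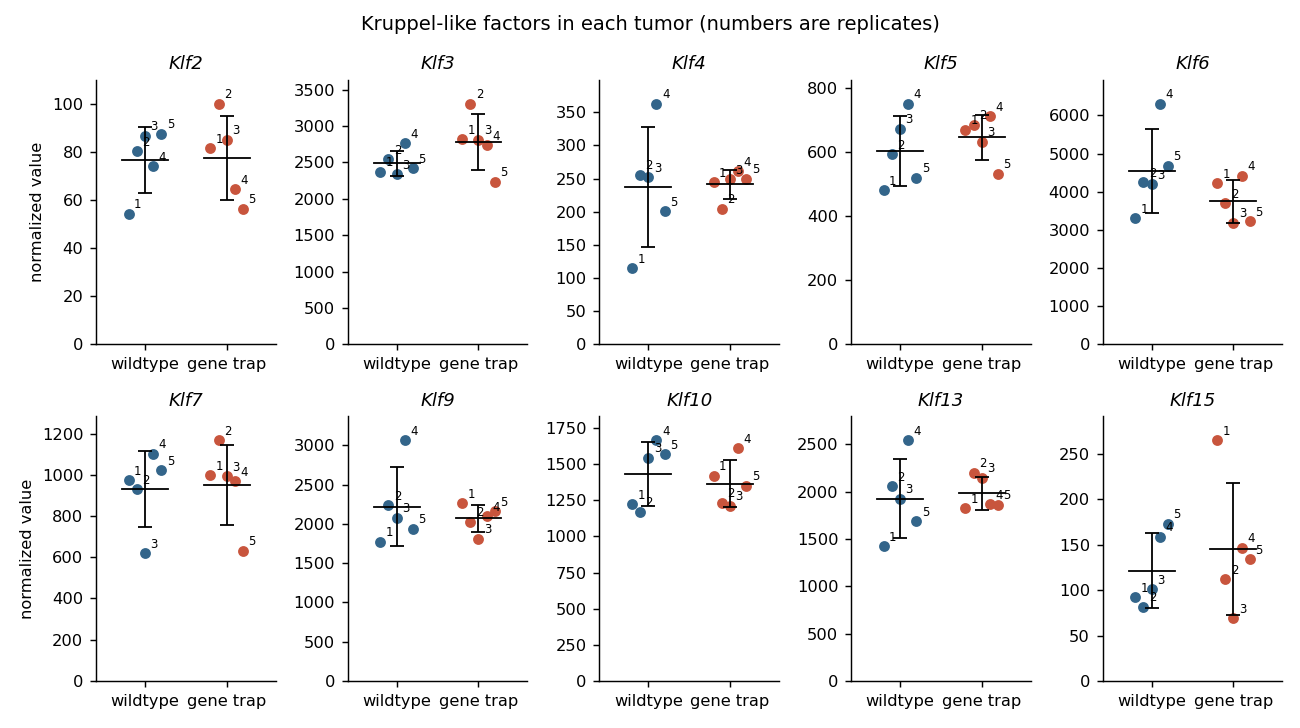
Normalized value of each member (y axes, each starting at 0) in 5 wildtype (blue) and 5 gene trap (red) tumors, with the replicate number beside each point, a line for the mean and bars for the SD. The groups overlap for every member, and wildtype replicates 1 and 4 are the lowest and highest points for *Klf4*, *Klf5*, *Klf9* and *Klf13*.

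The clearest pattern was between individual tumors rather than between genotypes. Wildtype replicate 4 had the highest value of 6 members, *Klf4*, *Klf5*, *Klf6*, *Klf9*, *Klf10* and *Klf13*, and it was the highest tumor for 8.16% of all tested genes. Wildtype replicate 1 had the lowest value of 5 members, *Klf2*, *Klf4*, *Klf5*, *Klf9* and *Klf13*, and it was the lowest tumor for 8.35% of all tested genes. The mean z score of the 10 members was 1.23 in wildtype replicate 4 and -1.21 in wildtype replicate 1, and it lay between -0.66 and 0.44 in the other 8 tumors. The members are not independent of each other, and these counts describe 2 tumors.

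As these are the extremes of 1 group, the spread of several members was larger in wildtype tumors. The coefficient of variation of *Klf4* was 38.1% in wildtype and 9.06% in gene trap tumors. For *Klf9* it was 22.7% and 8.14%, and for *Klf13* it was 21.8% and 8.99%, respectively. The opposite was seen for *Klf3*, with 7.01% and 13.7%, and for *Klf15*, with 34.2% and 50.3%. On the log2 scale the SD was larger in wildtype tumors for 6 of the 10 members and for 40.5% of all tested genes, and the difference in spread was not tested.

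Other gene lists also stood out in these tumors. In wildtype replicate 4 the mean z score of 12 immediate early genes, the transcripts that growth factors and stress induce first, was 1.79, against -0.73 to 0.57 in the other 9 tumors. The score of 10 glucocorticoid-responsive genes was 1.15 there, against -0.81 to 0.18, and that of 8 early TGF-beta targets was 1.20, against -0.86 to 0.47. The glucocorticoid-responsive genes were not raised alike. *Dusp1* was at 1521, against 310 to 900 elsewhere, and *Errfi1* at 19836, against 4129 to 13210. *Fkbp5* at 3476 and *Zbtb16* at 1041 lay within the range of the other tumors (1960 to 4942 and 291 to 1731). The growth factor-induced gene *Fos* reached 5416 in this tumor and 975 to 2965 elsewhere, and *Egr1* had 1855, against 282 to 1040. In wildtype replicate 4 the fibroblast and endothelial marker scores were also the lowest of all tumors, at -1.62 and -1.39. In wildtype replicate 1, where the members were lowest, the immediate early score was the second highest, at 0.57, with *Fos* at 2965 and *Egr1* at 1039.8. In this tumor the epithelial marker score was -1.33, against -0.67 to 0.66 in the others, and the skeletal muscle marker score was -1.81, against -0.57 to 2.01. Its T cell marker score was 1.20, below only that of gene trap replicate 3, at 1.93. The part of these lists in the values of the members was not tested, and in bulk tumors fewer cells of a type and less RNA per cell cannot be told apart.

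**Figure D3:**
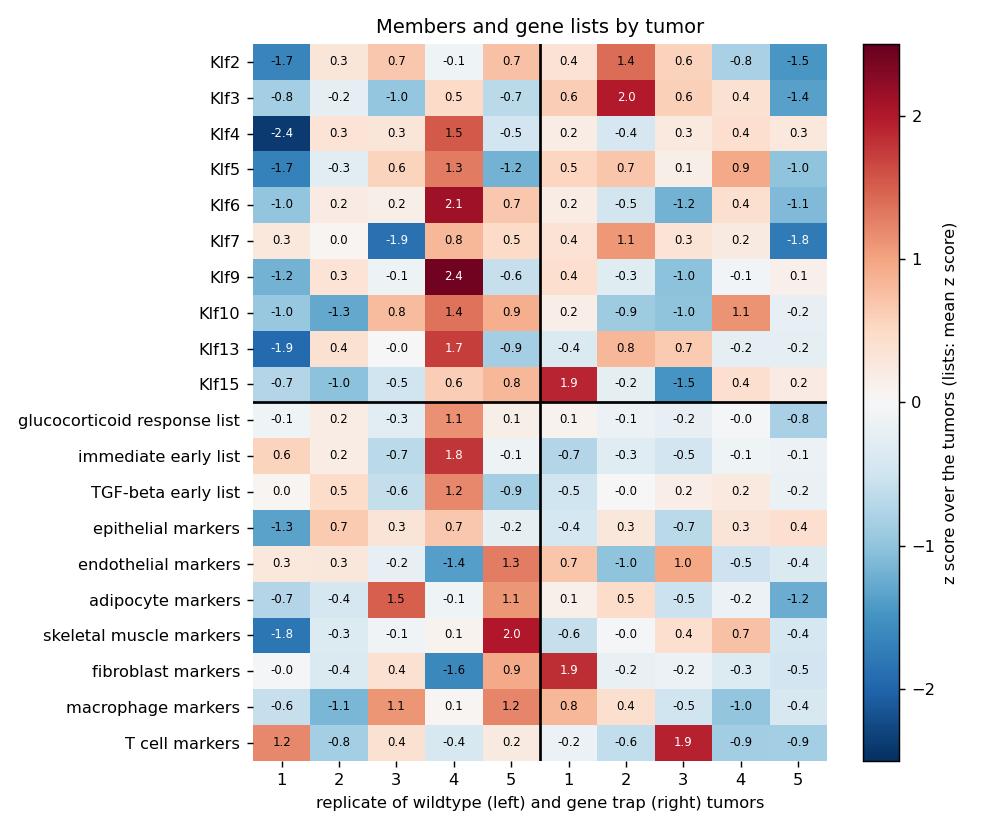
Z scores over the 10 tumors of the 10 members (upper rows) and mean z scores of gene lists (lower rows), with wildtype replicates 1 to 5 on the left and gene trap replicates 1 to 5 on the right, red for high and blue for low. Wildtype replicate 4 is red for most members and for the immediate early, glucocorticoid and TGF-beta lists, and wildtype replicate 1 is blue for most members and for the epithelial and muscle markers.

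To see which members varied together, the log2 values were correlated between the 45 pairs of members over the 10 tumors. Of these pairs 39 had a positive Pearson r, with a median of 0.41 and a range of -0.13 to 0.82. In permutation tests 10 pairs had an unadjusted p under 0.05, and none had an adjusted p under 0.05 (smallest Benjamini-Hochberg adjusted p = 0.0913 over 45 pairs). *Klf4* and *Klf13* had the highest correlation (r = 0.825, permutation p = 0.00778, adjusted p = 0.0913; rho = 0.588, permutation p = 0.0805). When the 2 tumors farthest from the median of *Klf4* were left out, which are wildtype replicates 1 and 4, r was 0.0837. With single tumors left out it was 0.636 to 0.918. Leaving out the extremes of a member narrows its range and tends to lower r, so this cannot decide whether the relation rests on those tumors.

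Other pairs also weakened when tumors were left out. *Klf6* and *Klf9* had an r of 0.799 over all tumors (rho = 0.515) and of 0.297 without wildtype replicate 4 and gene trap replicate 3. *Klf4* and *Klf5* had an r of 0.737 (rho = 0.673) and of 0.287 without wildtype replicates 1 and 4. *Klf6* and *Klf10* had an r of 0.734 (rho = 0.685) and of 0.580 without wildtype replicate 4 and gene trap replicate 3. For *Klf5* and *Klf13* r was 0.769 (rho = 0.721), and 0.450 without wildtype replicates 1 and 5. That of *Klf4* and *Klf9* was 0.756 (rho = 0.697), and 0.364 without wildtype replicates 1 and 4. The r of *Klf10* and *Klf15* was 0.631 (rho = 0.770), 0.546 without wildtype replicates 2 and 4, and 0.585 without wildtype replicates 1 and 4. In each pair the tumors farthest from the median of the gene named first were left out. Here the extremes of *Klf15*, gene trap replicates 1 and 3, stayed in, so this pair cannot be ranked against those above.

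The r of *Klf3* and *Klf7* was 0.742 over all tumors (permutation p = 0.00865, adjusted p = 0.0913), and rho was 0.745 (permutation p = 0.0176). Without wildtype replicates 1 and 4 r was 0.812. These tumors were neither the highest nor the lowest for *Klf3* or *Klf7*, so leaving them out is a weak check of this pair. Without the 2 tumors farthest from the median of *Klf3*, gene trap replicates 2 and 5, it was 0.569 (exact permutation p = 0.0583). Within groups, with each group centred on its mean, r was 0.813 for this pair and 0.821 for *Klf4* and *Klf13*. Over all pairs, the median r was 0.08 without wildtype replicates 1 and 4. As these 2 tumors are the extremes of the members' mean z score, leaving them out narrows the range of many members and tends to lower r. It cannot decide whether the relations between members rest on these tumors.

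**Figure D4:**
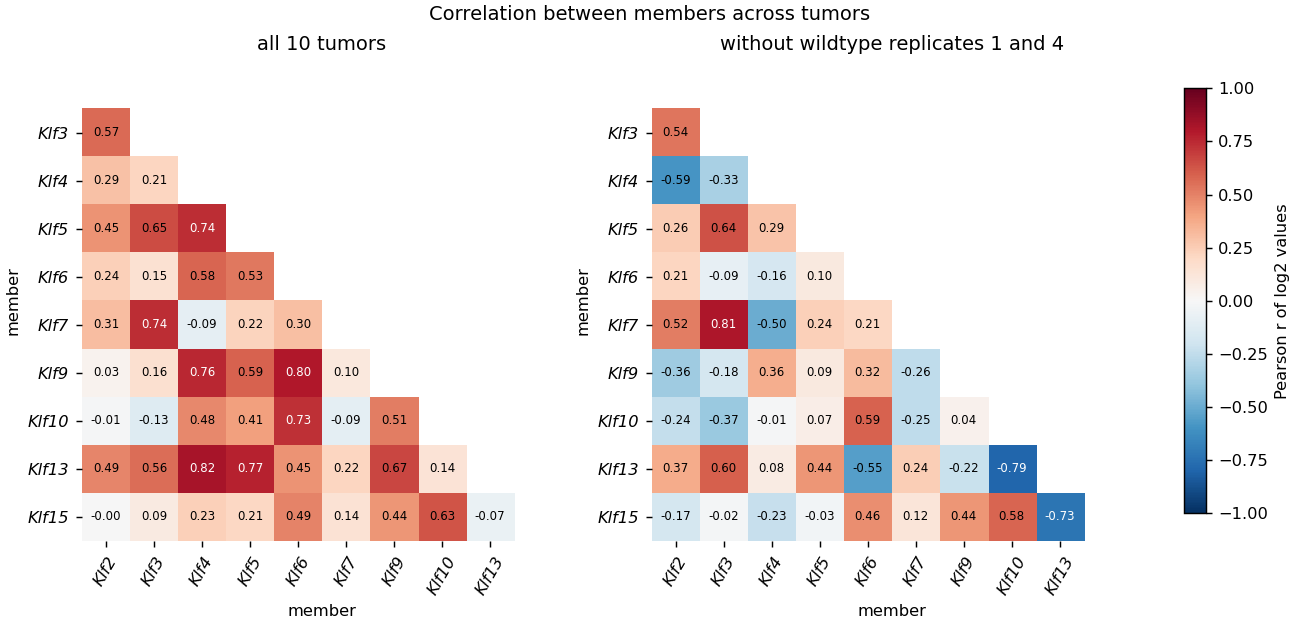
Pearson r of log2 values for each pair of members over all 10 tumors (left) and without wildtype replicates 1 and 4 (right), with red for positive and blue for negative values. Most pairs are positive on the left, whereas on the right the signs are mixed and *Klf3* with *Klf7*, at 0.81, is the highest pair. The tumors left out are the extremes of the members' mean z score, and leaving out extremes tends to lower r.

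Each member was also correlated with the scores of 11 lists, 3 of response genes and 8 of cell type markers, which gives 110 relations. None had an adjusted p under 0.05 (smallest Benjamini-Hochberg adjusted p = 0.241). In permutation tests 5 of the 110 had an unadjusted p under 0.05, near the share of 0.05 that chance alone would give. The strongest was that of *Klf6* with the glucocorticoid-responsive genes (r = 0.865, permutation p = 0.00219, adjusted p = 0.241; rho = 0.830, permutation p = 0.00473). Without wildtype replicate 4 and gene trap replicate 3 it was 0.717 (exact permutation p = 0.0335), and without wildtype replicates 1 and 4 it was 0.547. *Klf9*, itself known to be induced by glucocorticoids, had an r of 0.700 with the same list (permutation p = 0.0579), and of 0.0429 without wildtype replicates 1 and 4. *Klf4* had an r of 0.768 with the epithelial markers (permutation p = 0.0106, adjusted p = 0.581), and of 0.196 without wildtype replicates 1 and 4. *Klf2* had an r of 0.122 with the endothelial markers, of which 8 of 8 were measured, and its highest correlation was with the adipocyte markers (r = 0.696, permutation p = 0.0266, adjusted p = 0.687), of which 4 of 7 were measured.

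**Figure D5:**
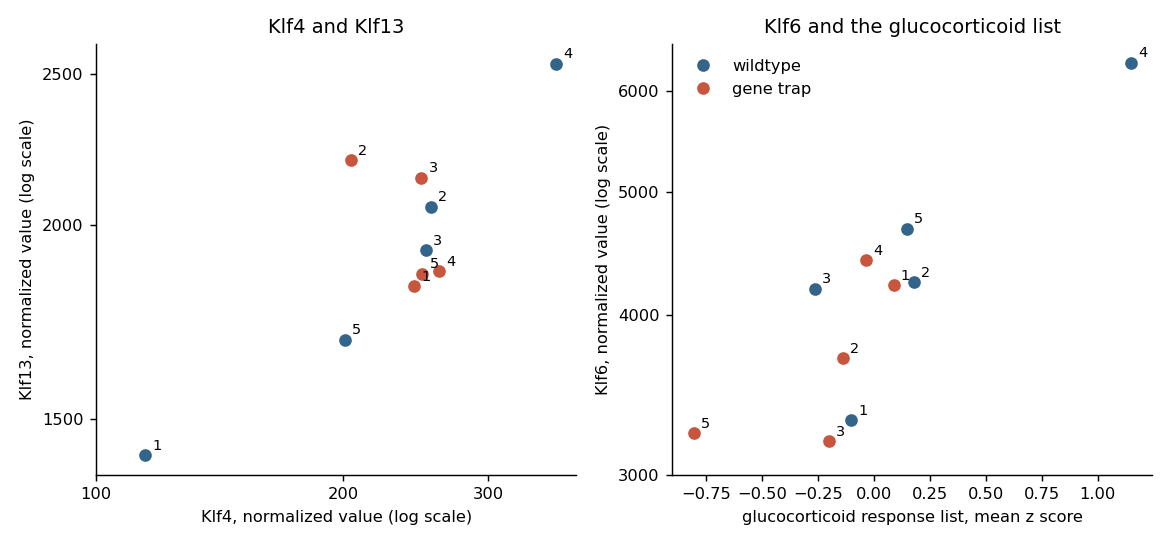
Normalized values of *Klf13* against *Klf4* (left, both axes on a log scale) and of *Klf6* (log scale) against the mean z score of 10 glucocorticoid-responsive genes (right), with 1 point per tumor, blue for wildtype and red for gene trap, and replicate numbers beside the points. On the left wildtype replicates 1 and 4 lie at the 2 ends and the other 8 tumors form a cloud, and on the right wildtype replicate 4 lies above and to the right of all others.

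The rest of the family did not separate the groups. Of 16 further Kruppel-like factor and Sp genes, 11 were in the table and tested, 0 had an unadjusted p under 0.05 (limma), and their median log2 fold change was 0.035 (0.18 without gene trap replicate 4). *Sp1* and *Sp3*, the broadly expressed factors that bind GC boxes, were abundant, with log2 fold changes of 0.035 and -0.034. *Klf11*, the member most like *Klf10*, had -0.24 (unadjusted p = 0.152 in limma), the most negative of the list. The most positive were *Sp6* with 0.72 and *Klf1* with 0.37 (unadjusted p = 0.252 and 0.339 in limma). Both were low, averaging 46.4 and 18.0 over the tumors. Of 14 cofactors and ubiquitin ligases of these factors, 0 had an unadjusted p under 0.05, and their log2 fold changes lay between -0.13 for the corepressor *Ctbp2* and 0.09 for the acetyltransferase *Ep300*.

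Among the upstream responses, 0 of 10 glucocorticoid-responsive genes and 0 of 8 early TGF-beta targets had an unadjusted p under 0.05, with median log2 fold changes of -0.24 and -0.051. That of the TGF-beta targets was 0.019 without wildtype replicate 4 and 0.0089 without gene trap replicate 1. Of the 12 immediate early genes, 0 had an adjusted p under 0.05, and 2 had an unadjusted p under 0.05, both lower in gene trap tumors. The share of all tested genes at this threshold was 2.28%. The median log2 fold change of the list was -0.41, and it was -0.25 without wildtype replicate 4. The count was then 1, as it was without gene trap replicate 2, and it was 7 without wildtype replicate 3. The 2 genes were *Egr2*, with a log2 fold change of -0.41 (unadjusted p = 0.0126, adjusted p = 0.9997, limma), and *Fos*, with -0.77 (unadjusted p = 0.0218, adjusted p = 0.9997). *Egr2* was the 1 gene of the 12 whose groups did not overlap, as was so for 0.528% of all tested genes. Its values were 153 to 225 in wildtype and 120 to 145 in gene trap tumors. With quantile normalization its groups overlapped. The marker lists held 1 to 8 tested genes each. Of all these genes only the basal keratin *Krt17* had an unadjusted p under 0.05, against 2.28% of all tested genes. Its log2 fold change was -0.63 (limma, unadjusted p = 0.0174, adjusted p = 0.9997). All 6 basal markers had a negative log2 fold change, with a median of -0.33, and did so without each of the 10 tumors. Of all tested genes 51.4% were positive. The 4 tested adipocyte markers were also all lower (median -0.36), and all 6 fibroblast markers were higher (median 0.096). The signs of these lists were not all kept when single tumors were left out. Markers of the same list are not independent of each other. The basal score was 0.442 ± 0.385 (SD, n = 5) in the wildtype and -0.442 ± 0.388 (SD, n = 5) in the gene trap group, and its part in the values of the members was not tested.

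Finally, the 3 genes whose log2 values followed each member most closely over the 10 tumors were listed, out of the 16174 that averaged 50 or more. They were ranked by the smaller of the Pearson r over all tumors and the r with each group centred on its mean. The highest of so many correlations over 10 tumors are large for any gene, and no test is given. *Klf13* was followed most closely by *Pcdh1* (r = 0.965), *Lix1l* and *Unc5cl*. *Klf3* was followed by *Ccnd3*, which encodes cyclin D3 (r = 0.957), *Khsrp* and *Sufu*. For *Klf10* these were *Tmprss13* (r = 0.946), *Fam13a* and *Bzw2*, and for *Klf5* they were *Erfe* (r = 0.944), *Syvn1* and *Aldh1a7*. For *Klf7* they were *Ipo13* (r = 0.935), *Mipol1* and *Inpp4a*. For *Klf2* they were *Mcub* (r = 0.924), *Rassf4* and *Alox5ap*, and for *Klf4* they were *Cers3* (r = 0.920), *Lgalsl* and *Thsd4*. *Klf9* was followed by *Ehf* (r = 0.894), *Dnajb1* and *Kitl*, *Klf6* by *Ddx19a* (r = 0.876), *Tk1* and *Kitl*, and *Klf15* by *Senp8* (r = 0.877), *Nt5c2* and *Creb1*. Only *Kitl*, which encodes the ligand of the Kit receptor, was among the 3 closest genes of 2 members.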

How the data were processed

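Total RNA of mouse mammary tumors was sequenced as stranded libraries (TruSeq Stranded Total RNA). What the authors deposited is a signal, estimated counts of each gene already normalized between tumors, and the submitters' processing notes name STAR 2.7.8a, Partek, DESeq2 and build mm39. The annotation and the counting settings are not given in the sources used here. The labels describe 16 tumors, 8 per group. Of the 16 columns of values, 10 matched a tumor's label by name and 6, named by an animal's number, were not used. The values hold no zeros and no common step, so whole reads and depth could not be recovered; column totals lay between 31995078 and 42153593.

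Symbols were found for 22899 of 23609 gene IDs (97.0%). The 21034 genes that averaged 10 or more were fitted as log2(value + 1) with limma 3.58.1 (R 4.3.3), a variance trend and genotype as the only factor. The pseudocount makes changes of low genes look smaller than they are. Single genes were also compared by an exact two-sided permutation test over 252 arrangements. Correlations used 100000 permutations, or all of them with fewer than 10 tumors, two-sided (scipy 1.17.1). Exon lengths came from GENCODE mouse release 21 and promoters from RefSeq. To score a list, the z scores of its tested genes were averaged in each tumor. The calculations were tested on simulated data. With 200 genes changed by 1.2 fold, 0 of them had an adjusted p under 0.05 in limma. At 1.5 fold 56 did, and at 2 fold 132. Most changes of 1.2 or 1.5 fold were therefore missed in the simulation, and such changes may go uncalled with these tumors too. The simulated noise was independent between genes, and the number of changed genes was chosen. The counts themselves need not hold for these tumors. Figures were drawn with matplotlib 3.10.9.

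The members and lists were chosen with earlier results of these data known, and the lists were written from memory. The genes named are the members, *Resf1*, list genes with an unadjusted p under 0.05 and the 3 genes most like each member; other examples were chosen after their values were seen. Nothing says whether tumors of a group came from separate animals, so p-values measure the spread between these samples.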

Additional observations from a re-analysis of the deposited data

Results flagged for a closer look

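In 46 groups of 5 tumors, from 23 measures (the 10 members, *Resf1* and 12 scores), 2 values lay far from the rest of their group by Dixon's criterion, where about 2.3 are expected by chance. Neither was the value of a member. Gene trap replicate 1 had a fibroblast marker score of 1.85 while the rest of its group had -0.480 to -0.153, and this tumor also had the highest *Klf15* value of all. Gene trap replicate 3 had a T cell marker score of 1.93 while the rest had -0.878 to -0.152, and this tumor had the lowest *Klf15* and *Klf6* values of all. Whether these markers have a part in the values of *Klf15* or *Klf6* was not tested.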

How the results depend on the processing

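Under all 19 alternatives, 10 of which left out 1 tumor each, 0 members and 0 genes in all had an adjusted p under 0.05, and 0 members had groups that did not overlap. The count of members with an unadjusted p under 0.05 was 0 to 1 when a tumor was left out (*Klf6* without wildtype replicate 1 and *Klf3* without gene trap replicate 5) and 0 otherwise. The log2 fold changes kept their sign in 177 of 190 cases, always for *Klf3*, *Klf5*, *Klf6* and *Klf10*. That of *Klf2* was -0.020 with columns scaled to the same total and -0.062 with weights per tumor. When a tumor was left out, the ranges that crossed 0 were -0.11 to 0.11 for *Klf2*, -0.12 to 0.29 for *Klf4*, -0.11 to 0.17 for *Klf7*, -0.15 to 0.047 for *Klf9*, -0.040 to 0.17 for *Klf13* and -0.063 to 0.42 for *Klf15*, and the median of the members ran from -0.075 (without wildtype replicate 1) to 0.14. The replicate numbers are only names, and the correlation between deviations of same-numbered tumors averaged -0.00977 (5 pairs). A fit with a block for replicate number called 0 genes (426 against 479 at an unadjusted p under 0.05, limma), so that 0 members were called and the log2 fold change of *Klf6* was the same (unadjusted p = 0.0832, limma). The count of pairs of members with an adjusted p under 0.05 was 0 to 2 when a tumor was left out. It was 1 without wildtype replicate 5 (*Klf3* with *Klf7*, r = 0.815) and 2 without gene trap replicate 2 (*Klf4* with *Klf13*, r = 0.918, and *Klf4* with *Klf5*, r = 0.805), and the cause was not tested. Leaving out wildtype replicates 1 and 4 together, and leaving out tumors for the gene lists, was chosen after the data were seen. The depth is unknown, so the counting error of low genes such as *Klf2* and *Klf15* cannot be given.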

Other observations

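Genes described as targets of the members and the factors that act with *Klf4* in pluripotent cells were also examined. Of 16 reported targets, 0 had an unadjusted p under 0.05 in limma's test, with a median log2 fold change of -0.054 (-0.11 without wildtype replicate 4 and 0.014 without wildtype replicate 3). *Cdkn1a*, the cell cycle inhibitor p21, had a log2 fold change of 0.23, and *Ccnd1*, which encodes cyclin D1, had -0.18. *Ccl5*, a chemokine gene known as a target of *Klf13*, had values of 44.6 to 58.2 in wildtype and 30.2 to 82.6 in gene trap tumors. The integrin gene *Itgb7* was highest in gene trap replicate 3, at 167, the tumor with the highest T cell marker score.

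Of 9 pluripotency genes, 5 were in the table and tested, and 0 had an unadjusted p under 0.05 (median log2 fold change 0.15, and 0.032 without wildtype replicate 1). *Tfcp2l1* was the most abundant, with values of 2255 to 4774 in wildtype and 3112 to 3415 in gene trap tumors. Its lowest and highest tumors were wildtype replicates 1 and 4, as for *Klf4*. *Pou5f1*, which encodes Oct4, had values of 8.87 to 17.8 over the 10 tumors. The genes *Sox2*, *Nanog*, *Esrrb* and *Prdm14* were not analysed here.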
